A study of Mus musculus with 15 samples.

Results

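The genes described here are the receptors and ligands of platelet-derived growth factor (PDGF) in sorted stromal, endothelial and epithelial cells of the mouse. Members were chosen by family membership, which names 6 genes: the receptors Pdgfra and Pdgfrb and the ligands Pdgfa, Pdgfb, Pdgfc and Pdgfd. Of these, 5 were measured among 10222 gene symbols, and Pdgfc was not analysed here. All cells came from C57BL/6 IL33-citrine reporter mice, heterozygous for an allele in which a fluorescent protein reports expression of Il33, the gene of an alarmin cytokine. There were 5 populations with 3 libraries each, 15 in all. Il33+ and Il33- WAT-MSC were multipotent stromal cells of white adipose tissue (WAT), labelled mesenteric and divided by the reporter. WAT endothelial cells were sorted on CD31. Lung Il33+ MSC were the reporter-positive stromal cells of the lung, and lung epithelial cells were sorted on Epcam. The 3 libraries of each population came from independent experiments. No treatment is labelled, and the methods describe the MSC used in assays as coming from naive mice. Ages, and whether animals were pooled, are not given in the sources used here. The sort for WAT-MSC required surface PDGFRα, the protein of Pdgfra, so the level of Pdgfra in these cells against the other populations is not independent of how the cells were chosen.

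PDGFs are dimeric growth factors that bind a pair of receptor tyrosine kinases. PDGFRα, encoded by Pdgfra, marks fibroblasts and mesenchymal progenitors, among them adipocyte precursors. PDGFRβ, encoded by Pdgfrb, is best known from pericytes and smooth muscle cells, the mural cells around vessels. The A and C chains act mainly through PDGFRα and the B and D chains bind PDGFRβ, with the B chain binding both receptors. Endothelial PDGF-B recruits pericytes to vessels, and epithelial PDGF-A acts on PDGFRα+ mesenchyme in the developing lung. The C and D chains are secreted as latent proteins and need cleavage by proteases, whereas the A and B chains are cut inside the cell by convertases of the furin family.

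Values are RPKM, read numbers that the authors divided by transcript length and by the mapped reads of the library, and they were summed here over the transcripts of a gene. Libraries had between 42711843 and 60773158 alignments (median 53038567). Read counts behind single values were not used here, so the error given is the spread between libraries. Il33 ranged from 38.7 to 78.5 RPKM in Il33+ WAT-MSC, 4.31 to 6.76 in Il33- WAT-MSC and 43.0 to 55.7 in lung Il33+ MSC. The labelled cell types had their markers: Pecam1 was at 145 to 198 RPKM in WAT endothelial cells and at most 19.1 elsewhere, and Epcam was at 25.9 to 39.8 in lung epithelial cells and at most 0.28 elsewhere. Replicate 1 of the endothelial cells stood apart, with 10.9% of transcripts listed at 0 against a median of 3.71% over all libraries. In the lung epithelial cells 1 gene, Scgb1a1, held 57.7 to 62.9% of the summed RPKM. RPKM is divided by transcript length, so this is not its share of the reads. Its reads lower the RPKM of every other gene of such a library, by an amount not measured here.

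Gene positions are those of RefSeq on GRCm38.p6. Pdgfra and Pdgfa are both on chromosome 5, at chr5:75151322-75198206 and chr5:138976014-139000792. Pdgfd is at chr9:6168363-6534284 and Pdgfb at chr15:79995865-80024614. The 250 bases before the start in the RefSeq promoter set are shown for Pdgfra (chr5:75152001-75152250, plus strand) and Pdgfd (chr9:6168236-6168485, plus strand), because this receptor and this ligand were both higher in every stromal library than in lung epithelial cells. Both windows lie upstream of the exons that GENCODE M21 gives for these genes, although the RefSeq genes begin before or within them. Capitals mark a match to the letters of the TATA box or GC box, searched on both strands.
Pdgfra: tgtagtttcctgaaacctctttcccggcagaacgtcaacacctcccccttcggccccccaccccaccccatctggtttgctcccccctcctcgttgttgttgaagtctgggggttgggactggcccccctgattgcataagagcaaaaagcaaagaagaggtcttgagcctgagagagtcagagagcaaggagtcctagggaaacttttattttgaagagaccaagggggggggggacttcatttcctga
Pdgfd: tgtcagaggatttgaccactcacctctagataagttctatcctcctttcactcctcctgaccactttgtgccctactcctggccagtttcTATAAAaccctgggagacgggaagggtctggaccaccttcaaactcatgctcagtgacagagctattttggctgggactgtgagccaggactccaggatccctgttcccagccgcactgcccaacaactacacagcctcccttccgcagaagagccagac
The Pdgfra window held 54.4% G and C and 4 CpG dinucleotides, and neither motif. The Pdgfd window held 53.6% G and C, 3 CpG and 1 match to TATAAA, which began 160 bases before the start. The windows before both RefSeq starts of Pdgfa, the ligand that was highest in epithelial cells, held 66.4% and 72.4% G and C and 19 and 28 CpG. These contained 1 and 2 matches to GGGCGG. Over 32851 windows of the same length the medians were 52.4% G and C and 6 CpG, 32.7% held GGGCGG and 12.4% held TATAAA. A match describes letters in the window and not a site in use.

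Of the receptors, Pdgfra was the more abundant in every library. In Il33- WAT-MSC it was at 79.5, 122 and 112 RPKM (104 ± 22.1, SD, n = 3), rank 201 of 10222 genes by mean level. In Il33+ WAT-MSC it was at 89.8, 53.3 and 69.7 RPKM (71.0 ± 18.3), and in lung Il33+ MSC at 60.3, 66.3 and 40.6 (55.7 ± 13.4). These stromal populations followed each other in level, and the libraries of neighbours overlapped. WAT endothelial cells gave 24.4, 28.1 and 35.7 RPKM (29.4 ± 5.76) and lung epithelial cells 8.42, 3.84 and 3.00 (5.09 ± 2.92). Both ranges were free of overlap with the population above them, the endothelial cells by a narrow margin, since their highest library had 35.7 and the lowest lung MSC library 40.6. How many of all genes lack overlap in this way was not counted, here or for the other members.

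Pdgfrb, on chromosome 18, had another order. It was highest in Il33- WAT-MSC, at 21.8, 25.0 and 26.4 RPKM (24.4 ± 2.33). Lung Il33+ MSC followed at 23.1, 23.1 and 16.8 RPKM (21.0 ± 3.64), then Il33+ WAT-MSC at 19.1, 8.08 and 13.9 (13.7 ± 5.49). WAT endothelial cells came next, at 8.73, 11.5 and 17.0 RPKM (12.4 ± 4.21). Among these populations each overlapped with the next in the order, so WAT endothelial cells, which are not known for PDGFRβ, had levels within the range of stromal libraries. In lung epithelial cells Pdgfrb was at 0.39, 1.09 and 1.16 RPKM, below every other library.

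**Figure D1:**
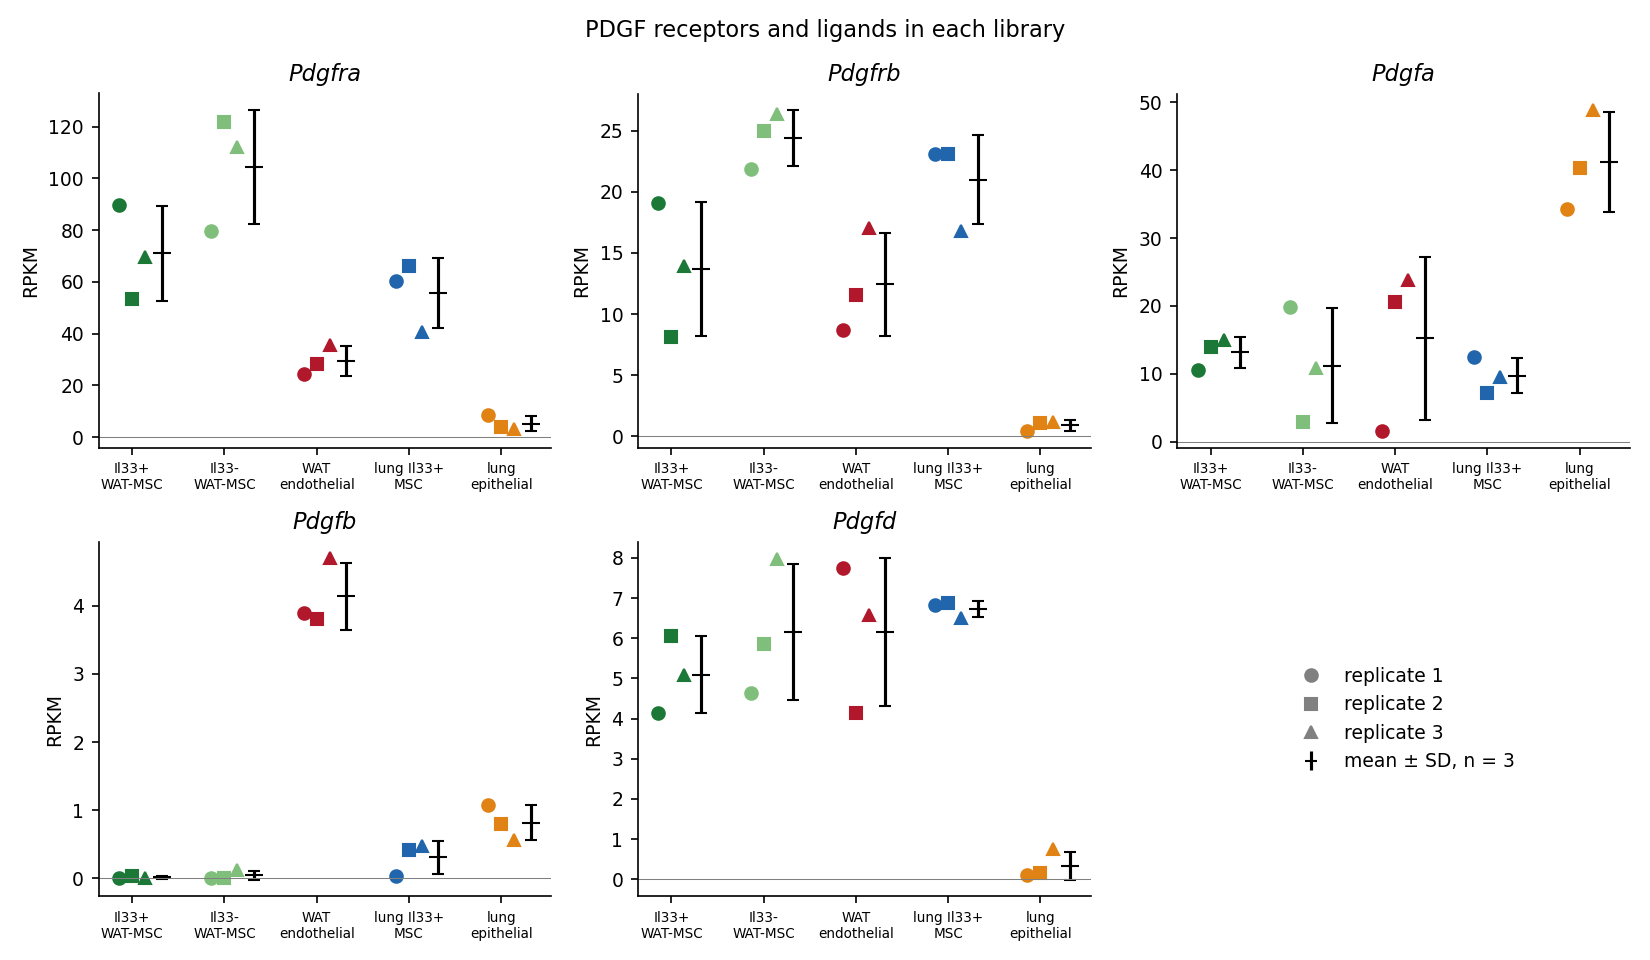
RPKM of the PDGF receptors and ligands (vertical axes, linear and different for each gene) in the 3 libraries of each population, with symbols for replicates and bars for the mean ± SD. Pdgfra and Pdgfrb were lowest in lung epithelial cells, Pdgfa was highest there, and Pdgfb was above 3.8 RPKM in WAT endothelial cells and at most 1.08 in all other libraries.

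The ligands were each distributed in their own way. Pdgfa was highest in lung epithelial cells, at 34.2, 40.3 and 48.9 RPKM (41.2 ± 7.38). Elsewhere it ranged from 1.49 to 23.8 RPKM, with overlap among the other 4 populations. The spread was widest in WAT endothelial cells, at 1.49, 20.5 and 23.8 RPKM (15.3 ± 12.02), with replicate 1 far below the others. It was wide in Il33- WAT-MSC too, at 19.8, 2.88 and 10.9 RPKM (11.2 ± 8.47), but narrow in Il33+ WAT-MSC (10.6, 13.9 and 14.99) and lung Il33+ MSC (12.4, 7.21 and 9.52). The summed level of 7 mesothelial markers also varied in the endothelial libraries, at 52.6, 168 and 204 RPKM in replicates 1, 2 and 3. So did the sums of 5 macrophage markers (14.99, 174 and 58.1) and 3 platelet markers (0.18, 18.6 and 3.47), both lowest in replicate 1. Endothelial replicate 1 also had the most transcripts listed at 0, 10.9% against a median of 3.71% over all libraries. Its Pearson correlation with replicates 2 and 3 over all genes was 0.77, against 0.92 between those. In Il33- WAT-MSC the mesothelial sum was 23.6, 36.2 and 20.8 RPKM, highest where Pdgfa was lowest. The macrophage (36.4, 50.7 and 17.5) and platelet (0.62, 2.74 and 0.75) sums were highest in that library too. In Il33+ WAT-MSC the mesothelial sum was 36.2, 92.9 and 118 RPKM and rose over the replicates as Pdgfa did. Its macrophage (9.82, 6.92 and 14.67) and platelet (2.67, 2.47 and 4.77) sums did not follow that order. The part of mesothelial cells, macrophages or platelets in the Pdgfa level was not tested, nor that of the zeros in endothelial replicate 1.

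Pdgfb, the ligand that endothelial cells are known for, was at 3.90, 3.81 and 4.70 RPKM in WAT endothelial cells (4.14 ± 0.49). Lung epithelial cells had 1.08, 0.80 and 0.57 RPKM, above the 0.03, 0.42 and 0.48 of lung Il33+ MSC without overlap. In Il33+ WAT-MSC it was listed at 0, 0.04 and 0 RPKM, and in Il33- WAT-MSC at 0, 0.01 and 0.12. Even in endothelial cells Pdgfb was of modest abundance, at rank 5021 of 10222 by mean level.

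Pdgfd was nearly level across 4 of the populations. It was at 4.13, 6.05 and 5.09 RPKM in Il33+ WAT-MSC and 4.63, 5.86 and 7.98 in Il33- WAT-MSC. WAT endothelial cells had 7.75, 4.15 and 6.58 RPKM and lung Il33+ MSC 6.82, 6.88 and 6.51. Neighbours in the order of means overlapped, but all libraries of lung Il33+ MSC were above those of Il33+ WAT-MSC, a difference that was not called by limma. Lung epithelial cells had 0.11, 0.15 and 0.74 RPKM, below every other library. WAT-MSC therefore held RNA of both receptors and of Pdgfa and Pdgfd at measurable levels and almost none of Pdgfb.

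Over the 15 libraries Pdgfra and Pdgfrb had a Pearson correlation of 0.93 on log2(RPKM + 1), Pdgfrb and Pdgfd 0.92, and Pdgfra and Pdgfd 0.84. Pdgfa was negatively correlated with all of them, at -0.61, -0.60 and -0.71 with Pdgfra, Pdgfrb and Pdgfd. These values describe libraries that share a population and a scaling, and the lung epithelial libraries lie at one end of each. The genes most like Pdgfra were Abca8a (0.99), Fndc3b (0.98) and Svep1 (0.98). Those most like Pdgfrb were Nfkbiz (0.99), Fosb (0.98) and Prelp (0.98), and those most like Pdgfd were Btg2 (0.97), Gas5 (0.97) and Pcf11 (0.97). Nfkbiz, Fosb and Btg2 are known as genes that respond within minutes to stimulation of a cell. Pdgfb was closest to Adgrl4 (0.98), Prkch (0.98) and Arhgef15 (0.98), of which Adgrl4 and Arhgef15 are known from endothelium. No gene reached such a likeness with Pdgfa, where the highest were Ubl5 (0.86), D430042O09Rik (0.85) and Rsph3b (0.84).

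The first comparison asked whether reporter-positive and reporter-negative WAT-MSC differed in PDGF genes. Fold changes were fitted with limma on log2(RPKM + 1) over every gene that reached 1 RPKM in 3 or more of the 6 libraries, and a gene was called at a Benjamini-Hochberg adjusted p under 0.05 over all genes tested. The added 1 understates the change of low genes. None of the 4 members tested was called by limma, beside 1.57% of all 8448 genes. At an unadjusted p under 0.05, where the share of all genes was not counted, 1 (Pdgfrb) passed. Pdgfra differed by a log2 fold change of -0.56 (SE 0.26, adjusted p = 0.448) and Pdgfrb by -0.86 (SE 0.30, adjusted p = 0.27) in Il33+ relative to Il33- WAT-MSC. For Pdgfrb the libraries did not overlap, with 19.1 RPKM the highest in Il33+ and 21.8 the lowest in Il33- cells. The share of all genes without overlap was not counted. The Pdgfrb difference was -0.85 within lane 1 and -0.88 within lane 2 of the sequencer, where lane 2 held 1 library of each population. Pdgfa was at 0.51 (SE 0.50, adjusted p = 0.768) and Pdgfd at -0.22 (SE 0.31, adjusted p = 0.86). Without replicate 2 of Il33- WAT-MSC the value for Pdgfa was -0.16. Pdgfb was too low to be tested.

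In WAT the endothelial cells were then compared with each stromal population, and both comparisons share the endothelial libraries. Pdgfb was higher in WAT endothelial cells than in Il33+ WAT-MSC by a log2 fold change of 2.34 (SE 0.37, limma adjusted p = 0.00902) and than in Il33- WAT-MSC by 2.30 (SE 0.38, adjusted p = 0.00745). Pdgfb was at most 0.12 RPKM in WAT-MSC, so it passed the filter only through the endothelial libraries in which it was high. With no filter the limma adjusted p was 0.00992 and 0.00895. Every endothelial library was above every stromal one, by 2.25 and 2.51 within lanes 1 and 2 for Il33+ cells and by 2.27 and 2.35 for Il33- cells. With a pseudocount of 0.1 in place of 1 the log2 fold changes were 5.24 and 4.97, so the size of this difference depends on the pseudocount while the direction does not. Pdgfra was lower in WAT endothelial cells than in Il33- WAT-MSC by a log2 fold change of -1.79 (SE 0.29, adjusted p = 0.00733), and by -1.87 and -1.62 within lanes 1 and 2. Against Il33+ WAT-MSC its value was -1.23 (SE 0.29, adjusted p = 0.0579) and missed the threshold, and the 2 comparisons were not tested against each other. Since PDGFRα was a criterion of the stromal sort, these values describe the sort as well as the cells. In all, 1 of 5 members was called against Il33+ WAT-MSC, beside 3.9% of all genes, and 2 of 5 against Il33- WAT-MSC, beside 5.69%.

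These calls rested on few libraries. For Pdgfb against Il33+ WAT-MSC the adjusted p was 0.084, 0.0544 and 0.0874 without stromal replicate 1, 2 or 3, within a range of 1.77e-05 to 0.0874 over 15 alternatives, with log2 fold changes of 2.33, 2.36 and 2.33. Against Il33- WAT-MSC it was 0.071 and 0.0619 without stromal replicate 2 or 3, in a range of 1.56e-05 to 0.071, with log2 fold changes of 2.27 and 2.35. For Pdgfra against Il33- WAT-MSC it was 0.0546 and 0.0505 without the same replicates, in a range of 0.00116 to 0.0546, with log2 fold changes of -1.67 and -1.73. Pdgfra against Il33+ WAT-MSC passed with an adjusted p of 0.0427 without endothelial replicate 3 and 0.0236 in a fit of all 15 libraries, in a range of 0.0236 to 0.281.

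The other members were not called in endothelial cells against either stromal population. Pdgfrb was at a log2 fold change of -0.10 (SE 0.39, adjusted p = 0.925) against Il33+ WAT-MSC and -0.96 (SE 0.33, adjusted p = 0.155) against Il33- WAT-MSC. Scaling by median ratios turned the first of these to 0.09. Pdgfd was at 0.21 (SE 0.37, adjusted p = 0.83) and -0.01 (SE 0.39, adjusted p = 0.995). Pdgfa was at -0.35 (SE 0.78, adjusted p = 0.868) and 0.16 (SE 0.90, adjusted p = 0.956). Its libraries were widely spread in endothelial cells and in Il33- WAT-MSC. Without endothelial replicate 1 the value against Il33+ WAT-MSC was 0.72.

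**Figure D2:**
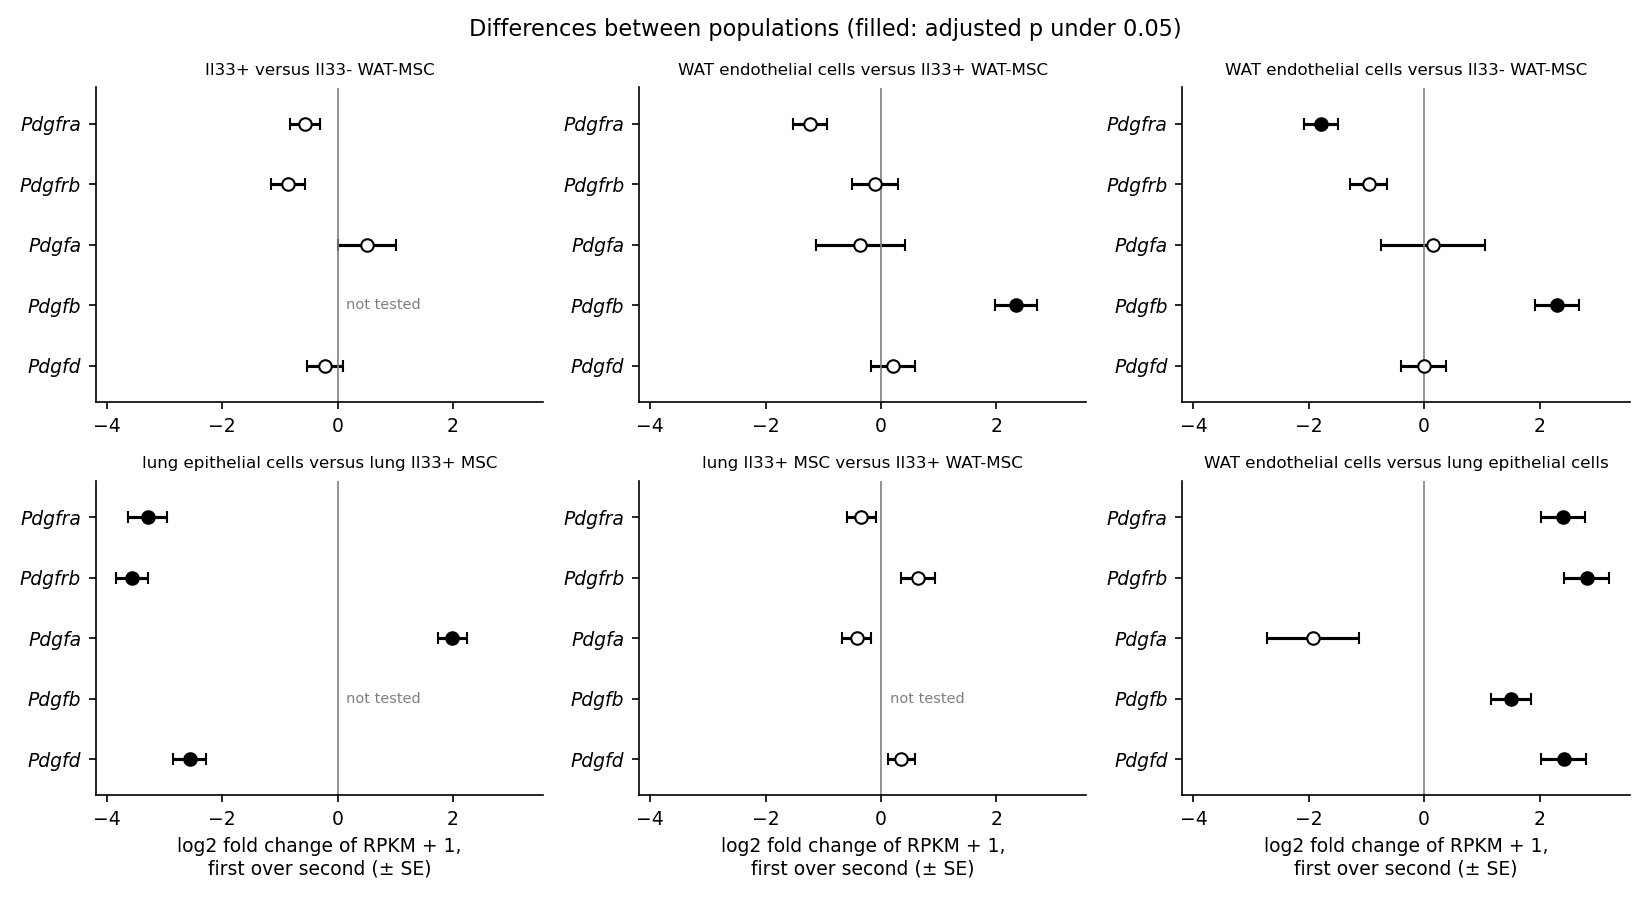
Log2 fold change of RPKM + 1 (horizontal axes, first population over second) with its standard error for each PDGF gene in 6 comparisons of 3 libraries against 3. Filled points passed an adjusted p of 0.05 in limma, and the widest error bars are those of Pdgfa wherever WAT endothelial cells were compared.

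Stromal and mural RNA was present in the endothelial libraries, and its levels stand beside those of the receptors. The median of 12 stromal markers, such as the collagen gene Col1a1, was 29.0, 32.9 and 64.8% of the mean of Il33+ WAT-MSC in endothelial replicates 1, 2 and 3. On the same scale Pdgfra was at 34.4, 39.7 and 50.4%, Pdgfrb at 63.8, 84.2 and 124% and Pdgfd at 152, 81.5 and 129%, with Pdgfrb and Pdgfd above the markers in every endothelial library. Against the mean of Il33- WAT-MSC the markers were at 39.5, 49.7 and 91.0%. There Pdgfra, at 23.4, 26.9 and 34.2%, and Pdgfrb, at 35.8, 47.2 and 69.7%, were below the markers in every endothelial library, and Pdgfd was above them at 126, 67.4 and 107%. The place of Pdgfrb relative to the markers thus depended on the stromal reference, and that of Pdgfd did not. All 10 mural markers had a mean of at least 1 RPKM in the endothelial libraries, and their summed level was 229 to 299 RPKM. That sum was 34.6 to 41.4 in Il33+ WAT-MSC, 6.93 to 19.03 in Il33- WAT-MSC, 109 to 116 in lung Il33+ MSC and 8.20 to 17.3 in lung epithelial cells. The pericyte marker Rgs5 was at 209, 215 and 141 RPKM in the endothelial cells, the largest part of their sum, and at most 16.4 elsewhere. Of the same list, Abcc9 and Kcnj8 had higher means in lung Il33+ MSC (84.6 and 18.6 RPKM) than in endothelial cells (15.4 and 6.81). Abcc9 also had a higher mean in Il33+ WAT-MSC, at 19.1 RPKM. The remaining markers had higher means in endothelial cells, with Cspg4 only at 2.11 there. The part of stromal or mural RNA in the receptor levels was not tested. In bulk RNA of this kind fewer cells of a type and less RNA per cell cannot be told apart.

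**Figure D3:**
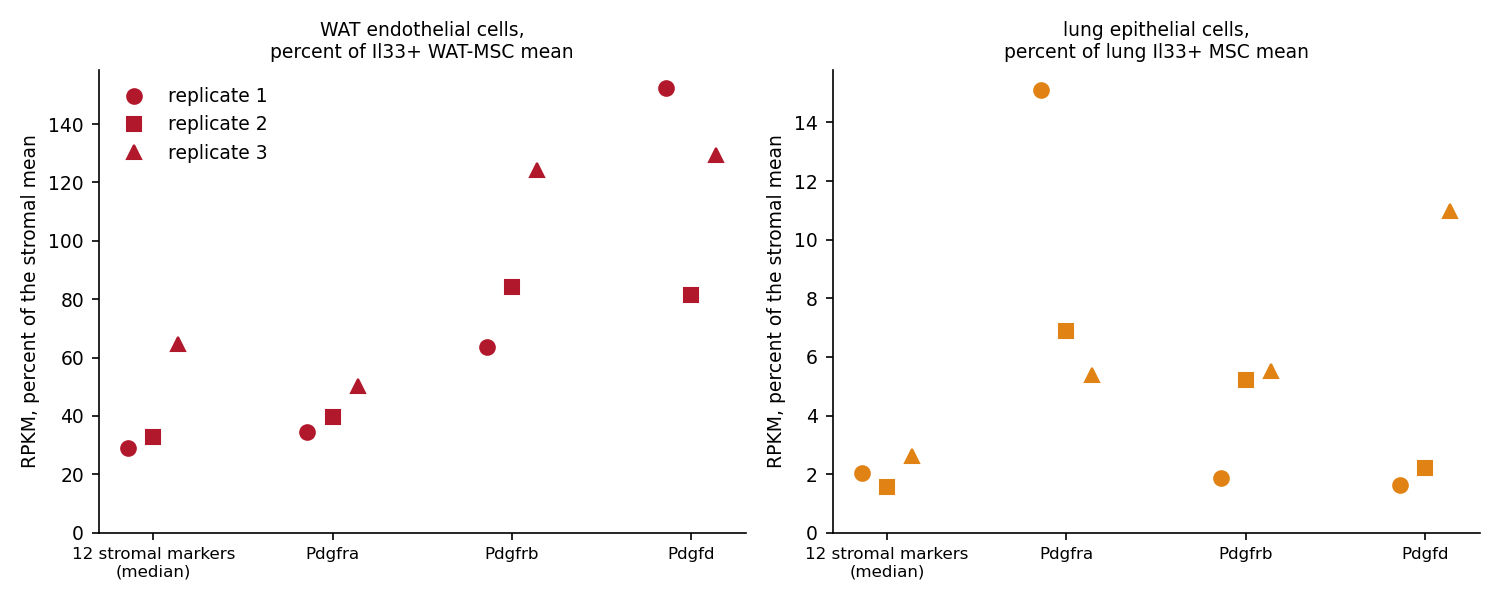
RPKM of Pdgfra, Pdgfrb and Pdgfd and the median of 12 stromal markers in each endothelial library as a percent of the mean in Il33+ WAT-MSC (left) and in each epithelial library as a percent of the mean in lung Il33+ MSC (right), on vertical axes from 0 with different limits. On the left Pdgfra lay at 34.4 to 50.4%, Pdgfrb reached 124% and Pdgfd 152%, and against Il33- WAT-MSC, which is not drawn, Pdgfrb was at 35.8 to 69.7%, below the markers.

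The balance of the receptors was measured as the ratio of Pdgfra to Pdgfrb within a library, which the scaling of that library does not change apart from the pseudocount. In RPKM the ratio was 4.71, 6.60 and 5.01 in Il33+ WAT-MSC and 3.64, 4.87 and 4.25 in Il33- WAT-MSC. It was 2.80, 2.44 and 2.10 in WAT endothelial cells, below each of the 6 WAT-MSC libraries and below those of the same lane. Lung Il33+ MSC, at 2.62, 2.87 and 2.42, overlapped with the endothelial cells and lay below all WAT-MSC libraries. The 3 endothelial libraries differed from the 6 WAT-MSC libraries by -0.97 in the mean log2 ratio of RPKM + 1, with p = 0.0119 in a two-sided exact permutation test, the smallest that its 84 partitions allow. The test counts Il33+ and Il33- libraries as independent. Deviations of these libraries from the mean of their population were correlated over genes. Those of each library correlated best, though weakly (r of 0.04 to 0.11), with the other population's library of the same replicate number. The p may therefore overstate the evidence. When each library was left out in turn the difference was -1.06 to -0.88. The exact p was then 0.0179 or 0.0357, in each case the smallest that the reduced design allows, so it says nothing of stability. Selection on PDGFRα in WAT-MSC bears on this ratio. Both receptor genes had 2 listed transcripts, of nearly equal RPKM outside the epithelial cells. Whether shared reads were divided between them is not stated, which affects the size of a level summed over transcripts. With the leading transcript alone the difference was -0.88. In lung epithelial cells the ratio was 21.6, 3.52 and 2.59, with Pdgfrb near 1 RPKM or below.

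**Figure D4:**
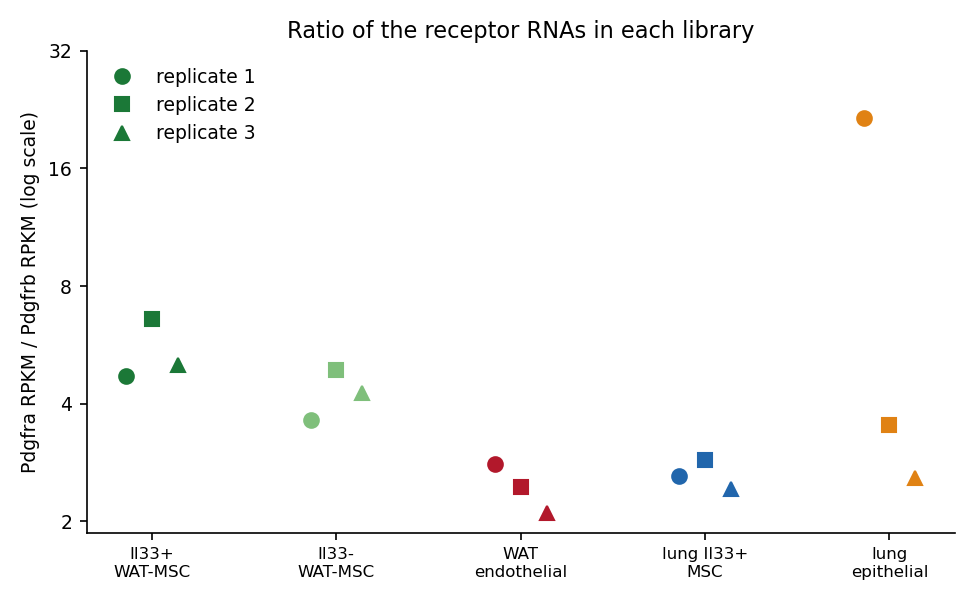
Ratio of Pdgfra to Pdgfrb RPKM (vertical axis, log scale) in the 3 libraries of each population, with symbols for replicates. The WAT endothelial libraries lie between 2.10 and 2.80, below all 6 WAT-MSC libraries, which begin at 3.64.

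In the lung, the ligand Pdgfa was higher in epithelial cells than in Il33+ MSC by a log2 fold change of 1.99 (SE 0.25, limma adjusted p = 0.000175). The receptors were lower there, Pdgfra by a log2 fold change of -3.29 (SE 0.34, adjusted p = 5.22e-05) and Pdgfrb by -3.56 (SE 0.28, adjusted p = 8.84e-06), and so was Pdgfd by -2.57 (SE 0.28, adjusted p = 7.03e-05). All 4 members tested were called, in a comparison in which 43% of all genes were. Within lanes 1 and 2 the differences were 1.39 and 2.29 for Pdgfa, -2.70 and -3.59 for Pdgfra, -4.11 and -3.28 for Pdgfrb and -2.82 and -2.44 for Pdgfd. Each of these calls held without any single library. The authors' gating strategy defines stromal cells by PDGFRα among other markers, without naming a tissue. Whether that gate was used to sort the lung MSC for RNA is not given in the sources used here. The Pdgfra difference in the lung may therefore not be independent of the sort. Pdgfb did not reach the level for a test. Pdgfd was at most 0.74 RPKM in the epithelial cells and Pdgfrb at 0.39, 1.09 and 1.16. Both Pdgfd and Pdgfrb therefore passed the filter only through the stromal libraries. The stromal markers were at 2.03, 1.57 and 2.60% of their mean in lung Il33+ MSC in epithelial replicates 1, 2 and 3, and Pdgfra was at 15.1, 6.89 and 5.38%, above the markers in each. Pdgfrb was at 1.86, 5.20 and 5.53% and Pdgfd at 1.63, 2.23 and 10.98%.

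Il33+ MSC of the lung and of WAT were compared to see whether the tissue made a difference within reporter-positive stroma. None of the 4 members tested was called by limma, beside 6% of all genes. At an unadjusted p under 0.05 no member passed either, and the share of all genes at that threshold was not counted. Pdgfra was at a log2 fold change of -0.34 (SE 0.25, adjusted p = 0.553) in lung relative to WAT, Pdgfrb at 0.64 (SE 0.29, adjusted p = 0.299), Pdgfa at -0.42 (SE 0.25, adjusted p = 0.449) and Pdgfd at 0.36 (SE 0.24, adjusted p = 0.51). With these standard errors a modest difference could go unseen.

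WAT endothelial cells were also set against lung epithelial cells, where tissue and cell type differ together and cannot be told apart. Pdgfrb was higher in the endothelial cells by a log2 fold change of 2.82 (SE 0.39, limma adjusted p = 0.00117), Pdgfd by 2.42 (SE 0.39, adjusted p = 0.00237), Pdgfra by 2.41 (SE 0.39, adjusted p = 0.00234) and Pdgfb by 1.505 (SE 0.34, adjusted p = 0.0118). In all, 4 of 5 members were called, beside 27.6% of all genes. Pdgfd, Pdgfrb and Pdgfb passed the filter only through the endothelial libraries. In the epithelial libraries Pdgfrb was at 0.39, 1.09 and 1.16 RPKM and Pdgfb at 1.08, 0.80 and 0.57, too few at 1 RPKM to pass alone. Of all genes called, 53.8% were higher in endothelial cells, and 43.2% under median-ratio scaling. Within lanes 1 and 2 the differences were 2.99 and 3.08 for Pdgfrb, 2.60 and 2.42 for Pdgfd, 1.53 and 3.06 for Pdgfra and 1.22 and 1.76 for Pdgfb. The call for Pdgfb was lost without epithelial replicate 2 (log2 fold change 1.503, adjusted p = 0.0623) or 3 (1.40, adjusted p = 0.0698), in a range of 9.47e-06 to 0.0698. Pdgfa was at -1.93 (SE 0.80, adjusted p = 0.118), with all endothelial libraries below all epithelial ones. It passed in a fit with the replicate number as a block (adjusted p = 0.0477), in a fit of all libraries (0.0428), with median-ratio scaling (0.0314), with quantile normalization (0.0215) and without endothelial replicate 1 (log2 fold change -0.86, adjusted p = 0.0443), in a range of 0.0215 to 0.278. Pdgfb in the epithelial libraries was at 26.1, 19.3 and 13.8% of its endothelial mean, where the median of 12 endothelial markers was 7.92, 10.5 and 8.81%. The part of endothelial RNA in that level was not tested.

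Other genes of the pathway were taken from lists of ligand-processing proteases, co-receptors and extracellular binding partners, signal transducers and inhibitors of receptor signalling, 60 genes of which 58 were analysed. Between Il33+ and Il33- WAT-MSC 2 of 54 tested genes were called beside 1.57% of all genes, both lower in Il33+ cells. Plau, the urokinase that can activate PDGF-D, was at 19.3, 10.4 and 12.4 RPKM in Il33+ and 57.1, 80.5 and 52.3 in Il33- WAT-MSC (log2 fold change -2.12, SE 0.28, adjusted p = 0.00435), a call that was lost with no filter on low genes. Spry4, a feedback inhibitor of receptor tyrosine kinase signalling, was at 5.52, 7.86 and 6.68 against 14.5, 19.8 and 23.3 RPKM (log2 fold change -1.38, SE 0.27, adjusted p = 0.0321). The median log2 fold change of the lists was -0.07, against -0.01 over all genes tested. The call for Spry4 was lost in fits without Il33+ replicate 1 or 3 or Il33- replicate 2 or 3, with the log2 fold change then between -1.39 and -1.24. It was lost too in the fit of all 15 libraries, with no filter and with no trend in the variance. Pdgfd itself was not called between these populations.

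WAT endothelial cells were compared with stroma over the same lists. Against Il33+ WAT-MSC 1 of 55 was called, beside 3.9% of all genes. This was Pcsk6, a convertase of the furin family, at 11.2, 14.5 and 20.0 RPKM in endothelial cells and 45.4, 51.8 and 39.0 in Il33+ WAT-MSC (log2 fold change -1.54, SE 0.30, adjusted p = 0.0243). That call was lost without endothelial replicate 2 (-1.52) or without Il33+ replicate 1 (-1.54), 2 (-1.44) or 3 (-1.64), and with no trend. Against Il33- WAT-MSC 1 of 55 was called beside 5.69% of all genes, Plau, at -2.71 (SE 0.32, adjusted p = 0.00149). The list medians were -0.23 and -0.24, against -0.18 and -0.17 over all genes.

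In lung epithelial cells 3 of 55 list genes were higher and 18 lower than in lung Il33+ MSC, beside 43% of all genes called, with a list median of -0.57 against -0.13 over all genes. Among the proteases St14 (matriptase), which can also cleave latent PDGFs, rose by a log2 fold change of 2.70, to 4.89 to 6.15 RPKM from at most 0.05. St14 passed the filter here, and against WAT endothelial cells, only through the epithelial libraries. Plat, the tissue plasminogen activator that activates PDGF-C, differed by -4.37 and the convertase Pcsk5 by -2.31. Pcsk5 was at most 0.64 RPKM in epithelial cells and passed the filter against them only through the other population. Of the binding partners Sparc, which binds PDGF-B, differed by -5.27 and Lrp1, a co-receptor of PDGFRβ, by -4.35. Among transducers the Src-family kinase Fyn was at -2.64, the adaptor Gab2 at -2.62 and the PI3-kinase subunit Pik3cb at 1.63. Among inhibitors the phosphatase Ptprj was at 1.24 and Spry4 at -1.53, the latter not called in the fit of all 15 libraries. Limma adjusted p was at most 0.00277 for the genes named in this comparison. Of 6 proteases tested, St14 was the 1 called higher, and 3, Plat and Pcsk5 among them, were called lower. The median log2 fold change of the proteases was -1.41, against -0.13 over all genes.

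Lung Il33+ MSC differed from Il33+ WAT-MSC in 7 of 54 tested list genes, 1 higher and 6 lower, beside 6% of all genes called. The proteases Pcsk5 (log2 fold change -2.50), Plau (-2.32) and Pcsk6 were lower in the lung, as was Thbs1 (-1.64), the gene of a matrix protein that binds growth factors. Pcsk5 was at 5.98, 4.93 and 7.92 RPKM in lung and 30.3, 49.2 and 41.2 in WAT. Gab2 was higher (0.83), and the inhibitors Ptprj (-1.29) and Spred1 (-1.24) were lower. The call for Gab2 was lost without any 1 lung replicate or without WAT replicate 1 or 3 (0.76 to 0.91). That for Ptprj was lost without any 1 lung replicate (-1.33 to -1.23), and that for Spred1 without replicate 1 or 3 of either tissue (-1.29 to -1.10). All of these were lost with the leading transcript alone. Gab2 and Ptprj were lost with the lane as a covariate and with the replicate number as a block, Gab2 also in the fit of all 15 libraries and with no trend, and Ptprj with no filter. Against lung epithelial cells 12 list genes of 56 were higher and 1, St14 (-2.62), lower in WAT endothelial cells, beside 27.6% of all genes called, with a list median of 0.74 against 0.08 over all genes. Sparc (3.67), Plat (3.67), Pcsk5 (3.38), Lrp1 (3.32), Fyn (2.41) and Gab2 (1.94) were among the higher ones.

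**Figure D5:**
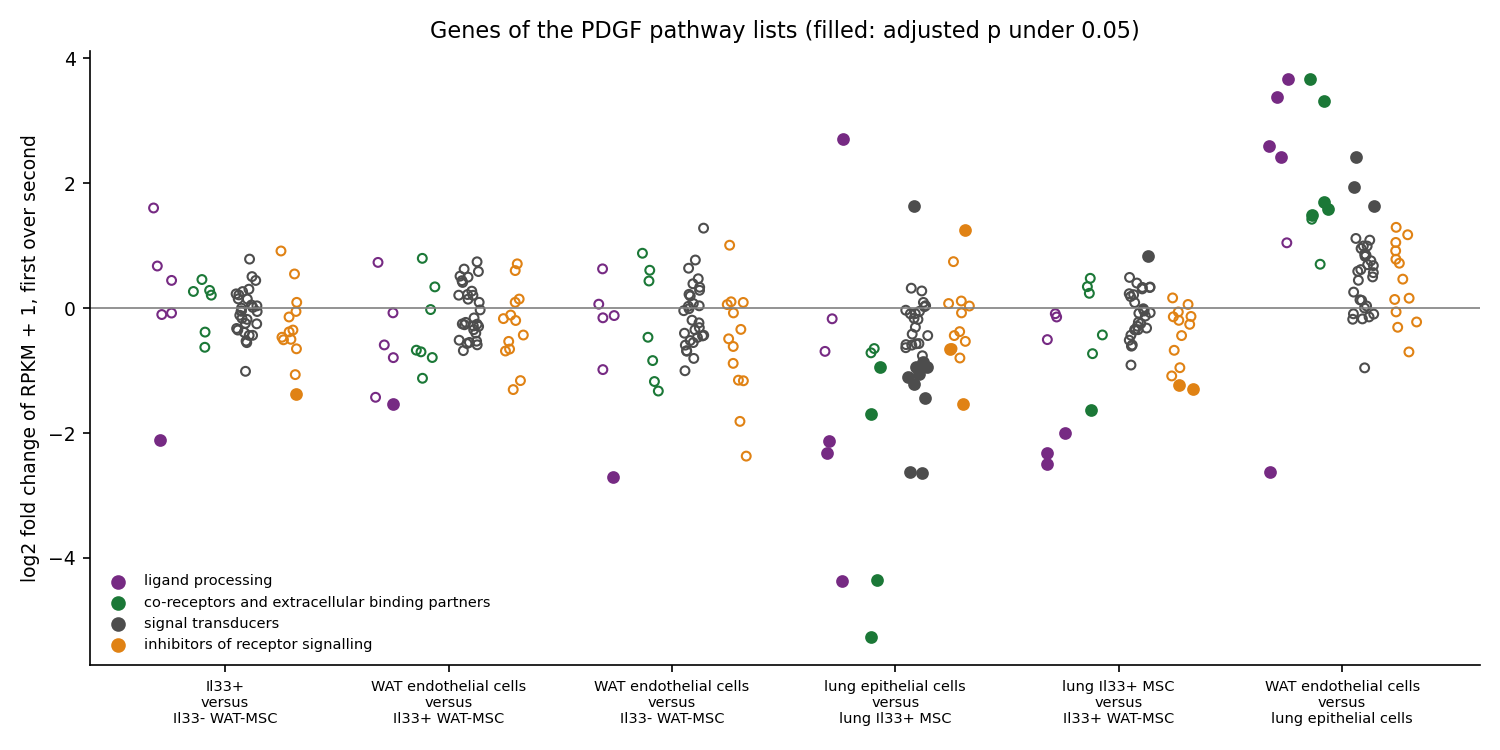
Log2 fold change of RPKM + 1 (vertical axis, first population over second) for each tested gene of 4 PDGF pathway lists, shown by colour, in 6 comparisons (horizontal axis). Filled points passed an adjusted p of 0.05 in limma, 2 of 54 genes between Il33+ and Il33- WAT-MSC and 21 of 55 between lung epithelial cells and lung Il33+ MSC.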

How the data were processed

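RNA of 15 flow-sorted samples was amplified with the Ovation RNA-seq System V2. Per the labels and methods, the authors aligned reads with TopHat2 in Partek Flow to mm10 and deposited RPKM per RefSeq transcript. A per-transcript RPKM is already divided by length and mapped reads. Here RPKM was summed per gene symbol, with 0 columns left unmatched. The methods state no model, so limma 3.58.1 in R 4.3.3 (lmFit, eBayes with trend) was run on log2(RPKM + 1) for 6 pairs of populations. Genes needed 1 RPKM in at least 3 of the 6 libraries, or 2 when a library was left out. P was adjusted by Benjamini-Hochberg at 0.05. The fit was tested on simulated data. The receptor ratio was tested by exact permutation in Python 3.11.15 with scipy 1.17.1. Lanes (8 and 7 libraries) were read from the labels. Named genes were the members, the 3 genes most correlated with each, and in each list and direction the 2 largest changes past the threshold. One result of that rule is not reported here. Marker genes were named as checks. Pcsk6 in the lung comparison was named after its value was seen. Lists and members were chosen with earlier results of these data known. Alternatives were a replicate block, lane as covariate, one fit of all libraries, median-ratio and quantile scaling, a pseudocount of 0.1, other filters, the leading transcript, no trend and each library left out. P-values measure the spread between libraries of independent experiments, except that the test of the receptor ratio pools Il33+ and Il33- libraries. Sequences and positions came from RefSeq.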

Additional observations from a re-analysis of the deposited data

How the results depend on the processing

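The number of PDGF members called kept within 1.5 times of its value under most settings. Requiring 1 RPKM in all 6 libraries left fewer members testable and gave 0 (against 1) for WAT endothelial cells versus Il33+ WAT-MSC, 1 (against 2) versus Il33- WAT-MSC, 2 (against 4) for lung epithelial cells versus lung Il33+ MSC and 1 (against 4) for WAT endothelial versus lung epithelial cells. A fit of all 15 libraries gave 2 for the first of these, and leaving out single libraries gave 0 to 2 for both WAT endothelial comparisons; the cause was not tested. Among members that were not called, signs turned as follows. Pdgfrb in endothelial versus Il33+ WAT-MSC was 0.088 with median-ratio scaling and 0.11 and 0.16 without replicate 1 of either population (range over left-out libraries -0.41 to 0.16). Pdgfa was -0.16 in Il33+ versus Il33- WAT-MSC without Il33- replicate 2 (range -0.16 to 1.05), 0.72 in endothelial versus Il33+ cells without endothelial replicate 1 (range -0.94 to 0.72), and -0.33, -0.43 and -0.52 in endothelial versus Il33- cells without endothelial replicate 2 or 3 or Il33- replicate 2 (range -0.52 to 1.23). Pdgfd in endothelial versus Il33- WAT-MSC was 0.17 with median-ratio scaling, 0.21 without endothelial replicate 2 and 0.17 without Il33- replicate 3. The 4 calls between lung epithelial cells and lung Il33+ MSC held in every setting that tested them. Median-ratio scaling moved the median of all genes from -0.18 to -0.03, -0.17 to -0.03, -0.13 to 0.06 and 0.08 to -0.13 for WAT endothelial cells versus Il33+ WAT-MSC and versus Il33- WAT-MSC, lung epithelial cells versus lung Il33+ MSC, and WAT endothelial versus lung epithelial cells.

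Libraries with the same replicate number deviated together only weakly (r from -0.07 to 0.16), no comparison had all pairs above 0.1, and in 4 of 6 comparisons every library correlated best with its own number. With the replicate block the members called were 0, 1, 2, 4, 0 and 5 for Il33+ versus Il33- WAT-MSC, endothelial versus Il33+ and versus Il33- WAT-MSC, lung epithelial cells versus lung MSC, lung versus WAT Il33+ MSC, and endothelial versus epithelial cells, and all genes called were 232, 335, 680, 4186, 454 and 2806, against 133, 338, 496, 4019, 513 and 2560 without it. Of the pathway genes named, Gab2 and Ptprj between lung and WAT Il33+ MSC were called without the block and not with it. Over all alternatives these counts ranged from 20 to 232, 123 to 805, 222 to 1030, 1941 to 4390, 253 to 548 and 974 to 3529. No replicate block was used for the receptor ratio, which pools both WAT-MSC populations.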

Other observations

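Pdgfrl, a gene named for its likeness to a PDGF receptor and outside the family rule, was chosen after its values were seen. It was at 27.6, 26.1 and 34.3 RPKM in lung Il33+ MSC, above every other library. Il33+ WAT-MSC had 12.6, 4.03 and 18.2 RPKM, Il33- WAT-MSC 5.94, 2.16 and 1.93, WAT endothelial cells 6.21, 1.84 and 5.44 and lung epithelial cells 0.07, 1.64 and 2.14. It was lower in lung epithelial cells than in lung Il33+ MSC by a log2 fold change of -3.86 (SE 0.39, limma adjusted p = 4.4e-05). Between lung and WAT Il33+ MSC the value was 1.46 (SE 0.41, adjusted p = 0.0744), which missed the threshold.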
